A study of Mus musculus with 9 samples.

Results

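The genes described here are the troponin, tropomyosin and sarcomeric actin genes Tnnt2, Tnnt1, Tnni3, Tnni1, Tnnc1, Actc1, Acta1 and Tpm1, together with the leiomodin gene Lmod2. They were picked by gene name from a table of 55401 genes, in which each of the 9 names occurred 1 time. RNA-seq counts were available for 9 libraries of neonatal mouse ventricular myocytes (NMVMs), primary heart muscle cells that were isolated from wild-type C57BL/6J pups at 1 day of age and grown in DMEM with 10% FBS. The control group (n = 3) stayed in complete medium in normal oxygen. The hypoxia group (n = 3) was moved to DMEM lacking both glucose and serum and was kept for 6 h in a sealed chamber with an oxygen absorber. The hypoxia + rSRGN group (n = 3) was treated in the same way, with recombinant serglycin (rSRGN) in the medium during those hours. Serglycin is a secreted proteoglycan, and the labels give no dose for it. Low oxygen and the loss of glucose and serum came together, so their parts in any difference from control cannot be told apart. Nothing in the labels says that replicates came from separate cultures or litters, and the p-values therefore measure only the spread between these samples.

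The thin filament of heart muscle is a helix of actin with tropomyosin lying along it and a troponin complex at regular intervals. Troponin C binds calcium, troponin I holds the filament in its relaxed state and troponin T ties the complex to tropomyosin, so that calcium release lets myosin reach actin. Several of these proteins have paralogs that mark developmental stage or muscle type, with Tnni1 and Acta1 prominent in immature heart or skeletal muscle and Tnni3 and Actc1 in the mature heart.

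Levels are given as CPM, the count scaled to the library size after TMM correction for library composition, and are divided by the exon length of the gene in kb wherever genes are set against each other. The total count ranged from 21669017 to 22781557 in the control libraries, from 16583985 to 18148474 in hypoxia and from 16640239 to 20826701 in hypoxia + rSRGN. Some libraries stood apart for these genes. Hypoxia replicate 3 had the lowest level of its group for 9 of the 9 genes, and it was also the library with the lowest total count. Hypoxia + rSRGN replicate 1 had the highest level of its group for 8 of the 9 genes, and control replicate 1 the lowest for 7. Fold changes, calls and ratio differences between hypoxia + rSRGN and hypoxia are therefore given with and without hypoxia replicate 3 where it moves them, and where calls or medians of the 9 genes depend on hypoxia + rSRGN replicate 1 this is given too. Of the 12 cardiomyocyte marker genes, each was expressed above 1 CPM on average, and Myh6, the main myosin heavy chain of the mouse heart, had the highest CPM of them with a mean of 7186 CPM. All 9 thin filament genes had enough counts to be tested among the 16762 genes that passed the filter on low counts.

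In hypoxia, all 9 genes fell. Calls required a fold change of at least 1.5 as well as an adjusted p (Benjamini-Hochberg, quasi-likelihood test of edgeR) below 0.05. By this rule 9 of the 9 genes were lower in hypoxia than in control, where 25.1% of all genes tested were called lower. Their median log2 fold change was -3.38, against 0.05 for all genes tested, and single genes lay between -5.65 for Lmod2 and -1.71 for Acta1. In bulk samples such as these, fewer cells of a type and less RNA per cell cannot be told apart.

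Troponin T was represented by the cardiac gene Tnnt2 and by Tnnt1, the slow skeletal paralog. Tnnt2 (ENSMUSG00000026414.13) measured 1121, 1259.9 and 1223 CPM per kb in the control libraries, 233, 259 and 193 in hypoxia and 270.45, 267 and 265 in hypoxia + rSRGN. The control libraries stood far above the other 6, and the hypoxia libraries all lay below those with rSRGN, replicate 3 being the lowest. From control to hypoxia Tnnt2 fell by 2.40 on the log2 scale (SE 0.0954, edgeR adjusted p = 1.17e-15), a 5.26-fold lower level. Tnnt1 (ENSMUSG00000064179.13) was far less abundant, with 54.4, 55.2 and 59.4 CPM per kb in control, 8.07, 8.52 and 4.97 in hypoxia and 10.9, 9.33 and 7.79 in hypoxia + rSRGN. The hypoxia and hypoxia + rSRGN libraries overlapped, and neither group reached the control levels. Tnnt1 fell by 2.97 in log2 fold change in hypoxia (SE 0.139, edgeR adjusted p = 1.81e-14).

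Troponin I, the inhibitory subunit, was carried by the cardiac gene Tnni3 and by Tnni1, the slow skeletal form of the fetal and newborn heart. Tnni3 (ENSMUSG00000035458.15) stood at 552, 594 and 576 CPM per kb in control, 67.7, 52.9 and 45.3 in hypoxia and 95.7, 91.3 and 88.8 in hypoxia + rSRGN. The groups did not overlap, with every hypoxia + rSRGN library above every hypoxia library and far below control. Tnni3 fell by 3.38 on the log2 scale in hypoxia (SE 0.108, edgeR adjusted p = 3.60e-17), to a 10.4-fold lower level. Tnni1 (ENSMUSG00000026418.16) showed 272, 294 and 284 CPM per kb in control, 31.9, 21.0 and 18.6 in hypoxia and 43.5, 41.9 and 42.5 in hypoxia + rSRGN. Again the 3 groups were separate, and the hypoxia + rSRGN libraries lay close together. The fall of Tnni1 in hypoxia was 11.9-fold (log2 fold change -3.57, SE 0.132, edgeR adjusted p = 3.78e-16).

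Tnnc1 (ENSMUSG00000091898.8), which encodes the calcium-binding troponin C of heart and slow muscle, measured 1398, 1570.4 and 1607 CPM per kb in control, 148, 147 and 82.7 in hypoxia and 198, 188 and 174 in hypoxia + rSRGN. Hypoxia replicates 1 and 2 were alike and replicate 3 was well below them, but all 3 stayed below the hypoxia + rSRGN libraries and the groups did not overlap. Tnnc1 was 12.1-fold lower in hypoxia (log2 fold change -3.60, SE 0.149, edgeR adjusted p = 2.19e-15).

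The sarcomeric actins differed greatly in abundance. Actc1 (ENSMUSG00000068614.7), the cardiac actin, had 4571, 5067 and 5355 CPM per kb in control, 480.3, 563 and 310 in hypoxia and 717, 638 and 701 in hypoxia + rSRGN. It was the most abundant of the 9 genes in each of the 9 libraries on this scale, the groups did not overlap, and hypoxia replicate 3 was again the lowest. Its level in hypoxia was 11.1-fold lower (log2 fold change -3.47, SE 0.147, edgeR adjusted p = 3.19e-15). Acta1 (ENSMUSG00000031972.5), the skeletal actin, had 6.85, 6.82 and 4.88 CPM per kb in control, 1.57, 2.60 and 1.51 in hypoxia and 1.86, 2.01 and 1.96 in hypoxia + rSRGN. The groups with hypoxia overlapped, below all control libraries, and these levels rest on 155 to 234 counts in a control library and on 40 to 69 counts in a library of the other groups. Acta1 fell by 1.71 in log2 fold change (SE 0.216, edgeR adjusted p = 3.23e-07), the smallest fall of the 9 genes. Its coding sequence resembles that of Actc1, so some fragments could be assigned to the wrong actin or be left out. How many was not tested, and the level of Acta1 is uncertain for that reason.

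Tpm1 (ENSMUSG00000032366.15), the main tropomyosin of striated muscle, from which non-muscle isoforms are also spliced, measured 1045, 1113 and 1180.3 CPM per kb in control, 255, 258 and 226 in hypoxia and 294, 271 and 287 in hypoxia + rSRGN. Control was separate from the other groups, which lay close to each other without overlapping. The fall in hypoxia was 4.52-fold (log2 fold change -2.17, SE 0.0823, edgeR adjusted p = 5.17e-16). Counts per gene do not separate the spliced isoforms of Tpm1. Lmod2 (ENSMUSG00000029683.7), a leiomodin that starts actin polymerization and promotes elongation at the pointed end of the thin filament, had 154, 149 and 173 CPM per kb in control, 3.40, 3.36 and 2.67 in hypoxia and 3.98, 3.93 and 3.34 in hypoxia + rSRGN. The drop from control was larger than for any other of the 9 genes, and the groups with hypoxia overlapped. Lmod2 was 50.4-fold lower in hypoxia (log2 fold change -5.65, SE 0.107, edgeR adjusted p = 1.70e-20), where its counts were 91 to 125 per library.

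**Figure D1:**
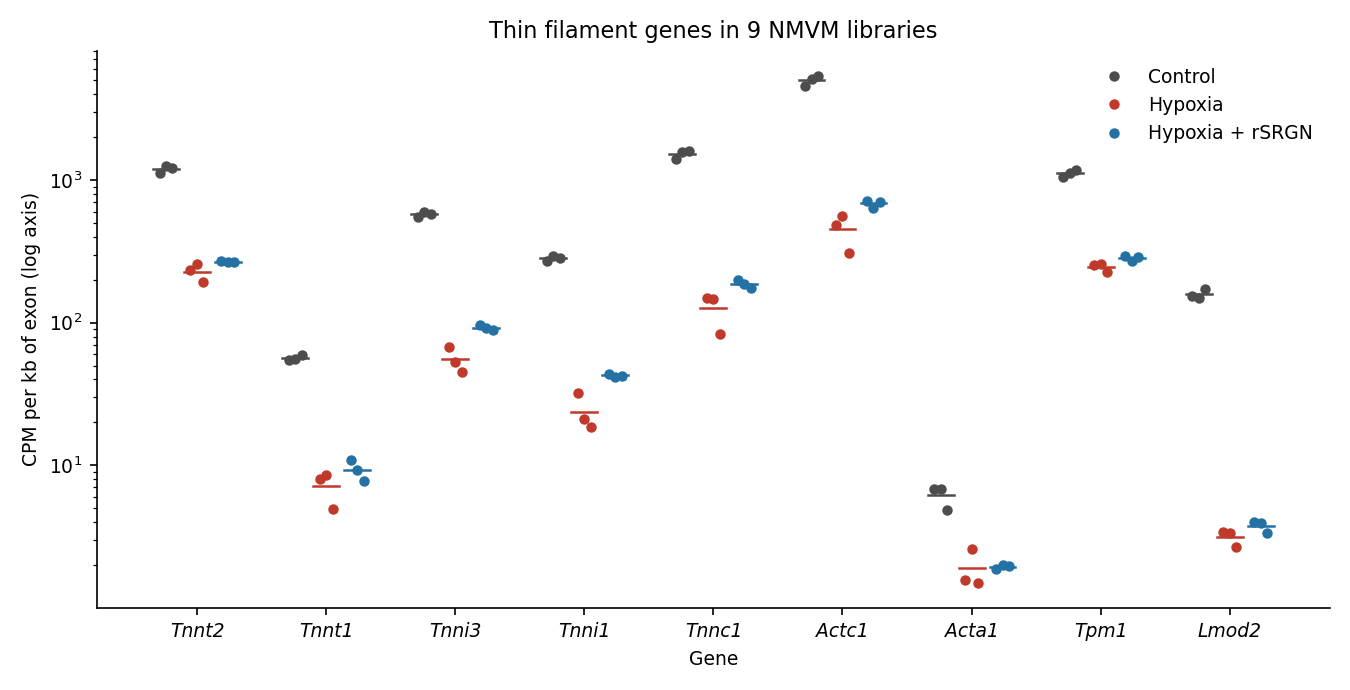
Level of each of the 9 thin filament genes in CPM per kb of exon on a log axis, with 1 point per library, 3 libraries per group and a bar at the group mean. Every gene is highest in the 3 control libraries, and Lmod2 shows the widest gap, from a mean of 159 in control to 3.14 in hypoxia.

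Set side by side per length, the order of levels shifted between the groups. In control, the mean CPM per kb ran from Actc1 (4998 ± 397, SD, n = 3) through Tnnc1 (1525 ± 112), Tnnt2 (1201 ± 71.7), Tpm1 (1113 ± 67.5), Tnni3 (574 ± 20.9), Tnni1 (283 ± 11.1), Lmod2 (159 ± 13.1) and Tnnt1 (56.3 ± 2.69) to Acta1 (6.18 ± 1.13). Tnnt2 and Tpm1 overlapped in that order, and no other neighbours did. In hypoxia, the order was Actc1 (451 ± 129), Tpm1 (246 ± 17.7), Tnnt2 (228 ± 33.4), Tnnc1 (126 ± 37.4), Tnni3 (55.3 ± 11.4), Tnni1 (23.8 ± 7.08), Tnnt1 (7.18 ± 1.93), Lmod2 (3.14 ± 0.412) and Acta1 (1.89 ± 0.61). Here too Tpm1 and Tnnt2 were the only neighbours that overlapped. Tnnc1 thus stood below Tnnt2 and Tpm1 rather than above them, and Lmod2 stood below Tnnt1. The hypoxia + rSRGN group kept the hypoxia order, with Actc1 at 685 ± 41.7, Tpm1 at 284 ± 12.1, Tnnt2 at 267 ± 2.73 and Tnnc1 at 187 ± 12, and with 0 overlaps between neighbours. The exon lengths used, such as 7752 bases for Tnnt2, count every annotated exon of a gene, so a gene with many exons that are not used in heart muscle has its level per kb understated.

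With rSRGN, troponin I and cardiac actin were partly higher than in hypoxia alone. Of the 9 genes, 3 were called higher in hypoxia + rSRGN than in hypoxia, namely Tnni1, Tnni3 and Actc1, where 2.27% of all genes tested were called higher. None had a negative log2 fold change, and 0.859% of all genes were called lower. The median log2 fold change of the 9 genes was 0.37, against -0.03 for all genes tested. It depended on single libraries, as leaving out hypoxia replicate 3 gave 0.17, with 2 of the 9 genes called higher, and leaving out replicate 2 gave 0.51. Without hypoxia + rSRGN replicate 1 it was 0.25, also with 2 of the 9 genes called. For 6 of the 9 genes every hypoxia + rSRGN library was above every hypoxia library, which held for 16.5% of all genes tested. Leaving out hypoxia replicate 3 could not change this count, since that library was the lowest of its group for each of the 9 genes.

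Tnni1 rose by a log2 fold change of 0.84 with rSRGN (SE 0.124, edgeR adjusted p = 0.000165), a 1.79-fold higher level. The rise of Tnni3, the mature paralog, was 0.73 (SE 0.101, edgeR adjusted p = 8.82e-05). Without hypoxia replicate 3 both were still called higher, with 0.69 for Tnni1 and 0.61 for Tnni3. Actc1 rose by 0.60 (SE 0.134, edgeR adjusted p = 0.00387), a 1.52-fold change that lies just past the limit. Its log2 fold change was 0.39 without hypoxia replicate 3 and 0.57 without hypoxia + rSRGN replicate 1, and in neither case was the fold limit of 1.5 reached. The troponin C gene Tnnc1 had a similar difference of 0.57 (SE 0.137, edgeR adjusted p = 0.00705), which is 1.48-fold and was not called. It would be called without hypoxia replicate 1 (0.70), without hypoxia replicate 2 (0.69) or without hypoxia + rSRGN replicate 3 (0.63), and it was 0.34 without hypoxia replicate 3.

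The remaining 5 genes did not pass the test with rSRGN. For Tnnt2 the log2 fold change was 0.23 (edgeR adjusted p = 0.0906) and for Tnnt1 it was 0.37 (0.0832). Tpm1 differed by 0.21 (0.08) and Lmod2 by 0.25 (0.188). Skeletal actin, Acta1, was at nearly the same mean in both groups, with 0.04 (SE 0.238, edgeR adjusted p = 0.934). Without hypoxia replicate 3 these differences were 0.12 for Tnnt2, 0.17 for Tnnt1, 0.15 for Tpm1, 0.15 for Lmod2 and -0.09 for Acta1. The number of all genes called in this comparison was 525, and 321 without hypoxia replicate 3.

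Against control, the hypoxia + rSRGN group was still low. Here 9 of the 9 genes were called lower, where 24.7% of all genes tested were called lower and 24.1% higher. The median log2 fold change was -2.64, against 0.01 for all genes. Control libraries are shared by this comparison and by that of hypoxia with control, so their values are only given side by side. For Lmod2 they were -5.40 with rSRGN and -5.65 without it, for Tnnc1 -3.03 and -3.60, for Actc1 -2.87 and -3.47 and for Tnni1 -2.73 and -3.57. The pair was -2.64 and -3.38 for Tnni3, -2.60 and -2.97 for Tnnt1 and -2.17 and -2.40 for Tnnt2. Tpm1 gave -1.97 and -2.17, and Acta1 gave -1.67 and -1.71.

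**Figure D2:**
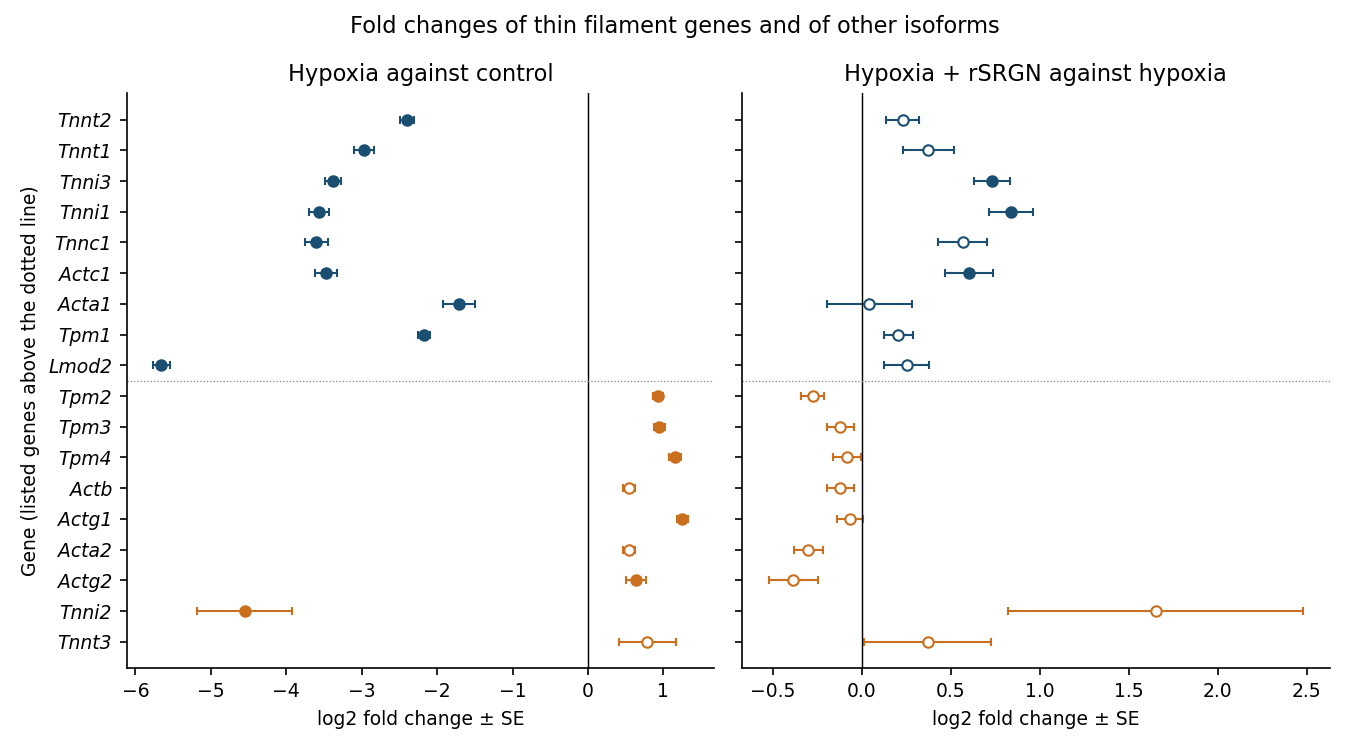
Log2 fold changes with their standard errors from edgeR's fit over 9 libraries, for the 9 thin filament genes above the dotted line and for 9 other isoforms below it, with filled points for genes called changed and open points for the others. In hypoxia the 9 genes lie between -5.65 and -1.71 while Actg1, Tpm4, Tpm3, Tpm2 and Actg2 are called higher, and with rSRGN Tnni1, Tnni3 and Actc1 are called higher.

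Ratios of 2 genes within a library do not depend on how libraries are scaled. Each of the 7 ratios was compared over the 3 groups with an exact permutation test, whose smallest possible p is 0.00357, and adjusted over the 7 by the Benjamini-Hochberg method. The genes in these ratios were chosen with earlier results of these data known, so the p-values are descriptive. The ratio of Tnnc1 to Tnnt2, per kb, was 1.25, 1.25 and 1.31 in the control libraries, 0.637, 0.566 and 0.429 in hypoxia and 0.732, 0.704 and 0.656 in hypoxia + rSRGN. All 3 groups were separate, with hypoxia lowest. On the log2 scale hypoxia differed from control by -1.24 and hypoxia + rSRGN from hypoxia by 0.38 (exact p over the 3 groups = 0.00357, adjusted 0.005). The latter was 0.21 without hypoxia replicate 3. Tnni3 to Tnnt2 gave 0.492, 0.471 and 0.471 in control, 0.291, 0.204 and 0.235 in hypoxia and 0.354, 0.342 and 0.335 in hypoxia + rSRGN. Again no group overlapped another, and the log2 differences were -0.99 and 0.51 (exact p over the 3 groups = 0.00357, adjusted 0.005), the latter 0.50 without hypoxia replicate 3. Within the same libraries, Tnnc1 and Tnni3 were thus further below control than Tnnt2 was.

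Tpm1 to Actc1 moved the other way. This ratio was 0.229, 0.22 and 0.22 in control, 0.531, 0.458 and 0.73 in hypoxia and 0.41, 0.424 and 0.41 in hypoxia + rSRGN. Hypoxia was highest and control lowest, without overlap, with log2 differences of 1.34 for hypoxia against control and -0.44 for hypoxia + rSRGN against hypoxia (exact p over the 3 groups = 0.00357, adjusted 0.005). The latter was -0.25 without hypoxia replicate 3, where Tpm1 to Actc1 was highest. Acta1 to Actc1 stayed far below 1 in every library, with 0.0015, 0.00135 and 0.00091 in control, 0.00328, 0.00461 and 0.00487 in hypoxia and 0.0026, 0.00315 and 0.0028 in hypoxia + rSRGN. The groups were separate, with log2 differences of 1.78 for hypoxia against control and -0.56 for hypoxia + rSRGN against hypoxia (exact p over the 3 groups = 0.00357, adjusted 0.005), the latter -0.45 without hypoxia replicate 3. Lmod2 to Tmod1, which sets the elongating leiomodin against the tropomodulin that caps the same filament end, was 1.87, 1.68 and 1.85 in control, 0.528, 0.534 and 0.707 in hypoxia and 0.381, 0.402 and 0.331 in hypoxia + rSRGN. This ratio was lowest with rSRGN, where the log2 fold change from hypoxia was 0.87 for Tmod1 and 0.25 for Lmod2. Without hypoxia replicate 3 these were 0.67 and 0.15. The log2 differences of the ratio were -1.62 for hypoxia against control and -0.66 for hypoxia + rSRGN against hypoxia (exact p over the 3 groups = 0.00357, adjusted 0.005). The latter was -0.52 without hypoxia replicate 3.

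The paralog ratios within troponin moved less. Tnnt1 to Tnnt2 was 0.0485, 0.0438 and 0.0486 in control, 0.0347, 0.0329 and 0.0258 in hypoxia and 0.0403, 0.035 and 0.0294 in hypoxia + rSRGN. Control lay above both other groups, which overlapped, and the test over the 3 groups gave an exact p = 0.0179, adjusted 0.0208. The log2 difference of hypoxia from control was -0.60. The exact p rose to between 0.05 and 0.0714 when any single control library or hypoxia + rSRGN replicate 2 was left out. Tnni1 to Tnni3, the fetal against the mature form, was 0.492, 0.495 and 0.493 in control, 0.471, 0.398 and 0.41 in hypoxia and 0.455, 0.459 and 0.479 in hypoxia + rSRGN. Control lay above both other groups, which overlapped, and its libraries had an SD of only 0.00153. The difference did not pass the test over the 3 groups (exact p = 0.075, adjusted 0.075), but without hypoxia replicate 1 the exact p was 0.00357. Between any 2 groups of 3 libraries an exact test cannot give a p under 0.1, so each exact p given for a ratio is that over all 3 groups and belongs to no single difference.

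**Figure D3:**
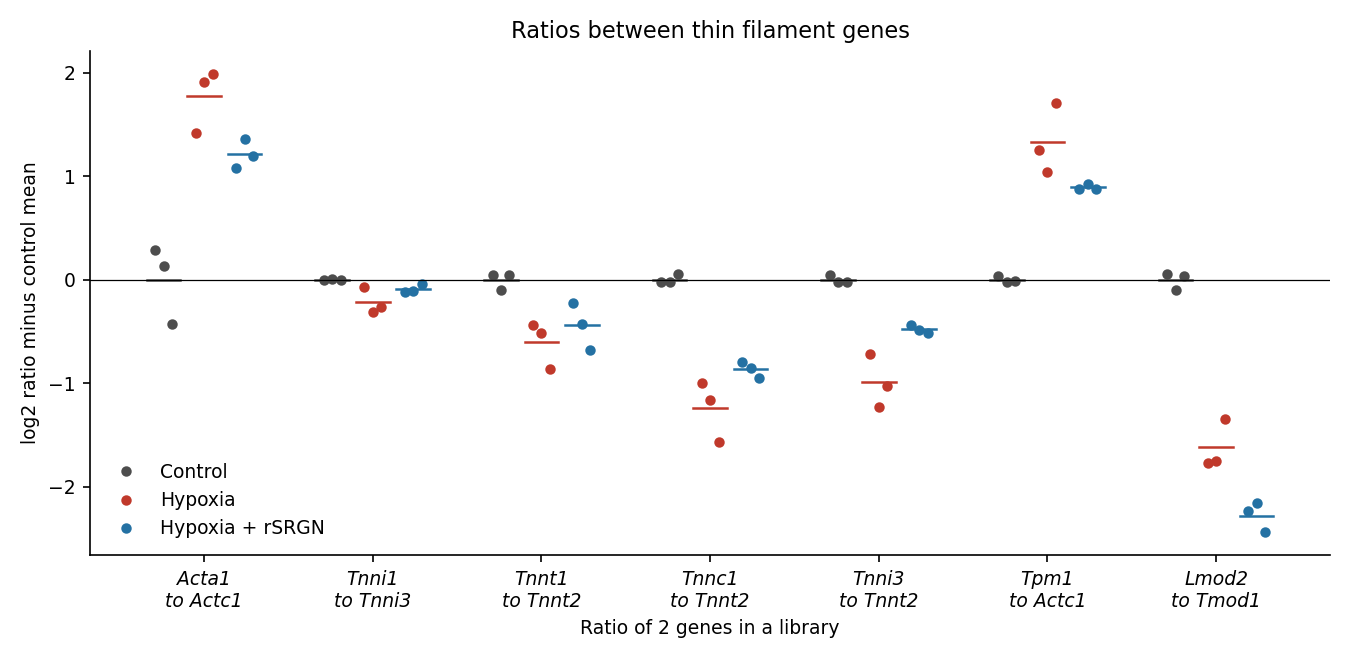
Log2 ratio of 2 genes per kb within each library, minus the mean of the control libraries, with 1 point per library and a bar at the group mean. Tnnc1 to Tnnt2 lies at -1.24 in hypoxia and Tpm1 to Actc1 at 1.34, while Tnni1 to Tnni3 lies at -0.21.

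As a share of all counts, the 9 genes together made up 2.66%, 2.87% and 2.88% of the control libraries, 0.479%, 0.492% and 0.388% of the hypoxia libraries and 0.581%, 0.541% and 0.564% of the hypoxia + rSRGN libraries. Hypoxia replicate 3 held the smallest share, with an exact 95% binomial interval of 0.385% to 0.391%. The intervals address counting error only and treat fragments as independent molecules. Since fragments are not, the intervals may be too narrow even for that error. Group means were 2.80 ± 0.124% in control, 0.453 ± 0.0568% in hypoxia and 0.562 ± 0.0204% in hypoxia + rSRGN (SD, n = 3), and no group overlapped another. The hypoxia mean was 0.486% without replicate 3. Within this sum the makeup shifted, as Actc1 took 27.5% to 28.7% of it in control and 13.4% to 18.4% in hypoxia. Tpm1 went from a range of 24.4% to 25.4% in control to 33.8% to 39.3% in hypoxia.

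Other isoforms of the thin filament proteins were mostly not lower in hypoxia, with Tnni2 as the exception. Of 10 such genes 9 were tested, and 5 were called higher and 1 lower in hypoxia, where 26.4% of all genes tested were called higher and 25.1% lower (median log2 fold change 0.79). Actg1, cytoplasmic gamma actin, rose from 980 ± 29.2 to 2329 ± 120 CPM (log2 fold change 1.25), and Tpm4, a non-muscle tropomyosin, from 349 ± 25.2 to 776 ± 73.8 CPM (1.15). Tpm3 and Tpm2 also rose, by 0.95 and 0.92, and so did the enteric smooth muscle actin Actg2 (0.64), which was not called without control replicate 1 (0.43). Acta2, the vascular smooth muscle actin that is also made by immature cardiomyocytes and myofibroblasts, differed by 0.55 and Actb, cytoplasmic beta actin, by 0.54, both under the fold limit. Acta2 would be called without control replicate 3 or hypoxia replicate 1 (0.61 each), and Actb without hypoxia replicate 2 (0.61). Tnni2, the fast skeletal troponin I, fell from 37, 42 and 45 counts in the control libraries to 1, 3 and 0 in hypoxia. Tnnt3, fast skeletal troponin T, had 14 to 36 counts in every library and was not called in hypoxia (0.79). Tnnc2, fast skeletal troponin C, had 0 counts in control, 3 in the hypoxia group and 1 with rSRGN, and was not tested. With rSRGN 0 of the 9 isoforms tested were called in edgeR's test against hypoxia (median -0.12), and 0 also without hypoxia replicate 3 (median -0.10), at an unadjusted p or in DESeq2. Only 3.13% of all genes were called in this comparison, so a count of 0 is near that of genes at large. The median was -0.055 without hypoxia replicate 2. Counts of 0 in the other gene lists were also 0 at an unadjusted p and in DESeq2, except that at an unadjusted p with rSRGN against hypoxia 1 assembly gene and 1 skeletal muscle marker were lower and 1 macrophage marker was higher.

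Summed in CPM, the 9 thin filament genes amounted to 28853 ± 1744 in control, 4453 ± 645 in hypoxia and 5594 ± 169 in hypoxia + rSRGN (SD, n = 3). The sum over the 10 other isoforms was 5057 ± 153, 8687 ± 331 and 7851 ± 251, so the sums differed in direction.

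Of 23 genes that assemble or cap thin filaments, 10 were called lower and 5 higher in hypoxia (median -0.49), where 25.1% and 26.4% of all genes were, so the number higher is near that of genes at large. With rSRGN 4 were called higher and 0 lower (median 0.06), where 2.27% and 0.859% of all genes were. The counts were 4 and 1 without hypoxia replicate 3 (median 0.06) and 4 and 2 without hypoxia + rSRGN replicate 1. The median was 0.02 without hypoxia + rSRGN replicate 2 and 0.11 without hypoxia + rSRGN replicate 3. Leaving out hypoxia replicate 1 also gave 1 lower. Xirp1, an actin-binding protein of the intercalated disc, fell by 5.90 on the log2 scale, and Tmod1, the pointed-end cap of the cardiac thin filament, went from 348 ± 23.7 to 21.7 ± 5.92 CPM. Both rose with rSRGN, by 1.18 and 0.87 (1.01 and 0.67 without hypoxia replicate 3). Against control 11 genes of the list were lower and 5 higher in the rSRGN group, or 3 higher without control replicate 3, where 24.7% and 24.1% of all genes were. Tmod4, a skeletal muscle tropomodulin, rose by 1.69 in hypoxia from a low level of 0.843 CPM, and Cfl1, a non-muscle cofilin that severs actin, by 1.10.

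Of SRF and 12 other transcription factors of cardiac muscle, 7 were called lower and 0 higher in hypoxia (median -0.68), where 25.1% and 26.4% of all genes were. The muscle-specific SRF cofactor Myocd fell by 3.60 and the homeobox factor Nkx2-5 by 3.53. These 2 of 13 were called higher with rSRGN (0.67 and 0.89), where 2.27% of all genes were. Without hypoxia replicate 3 only Nkx2-5 was (0.78), and Myocd was at 0.58. Srf itself differed by -0.26 (edgeR adjusted p = 0.00385), which is under the fold limit, and was not called. Among 10 splicing factors of muscle transcripts, 7 were lower and 1 higher in hypoxia (median -0.88), where 25.1% and 26.4% of all genes were. Rbm20 was at -3.83 and Rbm24 at -3.72, which both act on sarcomere transcripts, and Ptbp1, a repressor of muscle exons, was at 0.91. With rSRGN, Rbm24 (0.88) and Rbm20 (0.69) were called higher and 0 lower (median 0.39), where 2.27% and 0.859% of all genes were. Without hypoxia replicate 3 only Rbm24 (0.65) was called and Rbm20 was at 0.53. Against control, 5 were lower and 1 higher in the rSRGN group, where 24.7% and 24.1% of all genes were.

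The rest of the sarcomere fell with the thin filament. All 11 thick filament genes were called lower in hypoxia (median -3.49), led by the myosin heavy chain Myh7 (-4.95) and the myosin-binding protein Mybpc3 (-4.10), and 9 of 11 were called higher with rSRGN (median 0.76), with the light chain Myl3 at 0.89 and Myh7 at 0.88. Of the titin and Z-disc list, 10 of 10 were lower in hypoxia (median -3.62), led by Synpo2l (-4.61) and Csrp3 (-4.12), and 6 of 10 were higher with rSRGN (median 0.62), with Myoz2 at 0.82 and titin itself, Ttn, at 0.79. Without hypoxia replicate 3, 6 of 11 (median 0.62) and 1 of 10 (median 0.46) were called higher with rSRGN, with Myl3 at 0.73, Myh7 at 0.63 and Myoz2 at 0.69 still among them and Ttn at 0.58 not. All genes of both lists were also lower in the rSRGN group than in control. Of all genes tested, 25.1% were called lower in hypoxia, 2.27% higher with rSRGN and 24.7% lower in the rSRGN group than in control. The median for the 9 thin filament genes was -3.38 in hypoxia and 0.37 with rSRGN, or 0.17 without hypoxia replicate 3, and whether the lists differ was not tested.

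Markers of cell types moved with the groups. The 12 cardiomyocyte markers, of which 5 also stand in the thick filament or Z-disc lists, were called lower in 12 of 12 cases in hypoxia (median -3.66) and higher in 12 of 12 with rSRGN against hypoxia (median 0.78). The shares of all genes so called were 25.1% and 2.27%. Pln, the phospholamban gene, fell by 4.74 and rose with rSRGN by 0.90, and Nppa, which encodes atrial natriuretic peptide, rose with rSRGN by 1.03. Leaving out hypoxia replicate 3, 6 of the 12 were called higher with rSRGN (median 0.60), among them Pln (0.80) and Nppa (0.85). Summed, these markers measured 36307, 42377 and 45986 CPM in control, 4476, 3823 and 2534 in hypoxia and 6510, 6096 and 6064 in hypoxia + rSRGN. Like the 9 thin filament genes, they were lowest in hypoxia replicate 3.

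Fibroblast markers went up, with 7 of 10 called higher and 0 lower in hypoxia (median 0.90), among them Thy1 (1.53) and Dcn (1.47). The shares of all genes called there were 26.4% higher and 25.1% lower. Their sum was 8989, 10250.2 and 10580 CPM in control, 20633, 17856 and 19922 in hypoxia and 19703, 20318 and 19937 in hypoxia + rSRGN, and the collagen gene Col1a1 was the most abundant. With rSRGN, 1 of 10, the fibroblast transcription factor Tcf21, was called lower (-0.76, or -0.70 without hypoxia replicate 3), where 0.859% of all genes were. Endothelial markers were mixed in hypoxia, with 6 of 10 lower and 1 higher, where 25.1% and 26.4% of all genes were. Among those lower were Kdr (-1.55) and Cdh5 (-1.36), and the 1 higher was Eng (1.32), which was also the most abundant. Their sum was 255, 281 and 279 CPM in control, 502, 461 and 539 in hypoxia and 530, 517 and 535 with rSRGN, where Kdr was called higher than in hypoxia (0.93, or 0.84 without hypoxia replicate 3).

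Macrophage markers were low and fell, with 9 of 10 called lower in hypoxia (median -3.89), where 25.1% of all genes were. With rSRGN 0 were called in edgeR's test, where 3.13% of all genes were. Their sum was 231, 243 and 248 CPM in control, 25.4, 27.4 and 28.8 in hypoxia and 35.6, 34 and 29.8 with rSRGN, mostly from Lyz2. Adgre1 (-5.15) and C1qb (-5.11) had the largest falls among those with a mean of at least 1 CPM and rest on 6 and 4 counts in the whole hypoxia group. Smooth muscle markers summed to 860, 1029 and 1093 CPM in control, 349, 294 and 299 in hypoxia and 361, 355 and 358 with rSRGN. Of these 8 genes 3 were lower and 2 higher in hypoxia, counts near those of all genes (25.1% and 26.4%), with Des, an intermediate filament gene that heart muscle shares, at -2.82, Synpo2 at -1.17, Tagln at 1.47 and Actg2 at 0.64. Tagln was at a low level, with a mean of 2.56 CPM in control and 7.10 in hypoxia. Des was the most abundant by its mean over all libraries, but not in hypoxia. Without control replicate 1, 5 were lower and 1 higher, and without control replicate 3, 2 were lower. With rSRGN, Des was called higher (0.62), but not without hypoxia replicate 3 (0.46), and 1 marker was lower without that library or without hypoxia + rSRGN replicate 1. Of 12 skeletal muscle markers 6 were tested, and 2, with Actn3 at 1.82, were called higher and 1, Myh8 at -2.97, lower in hypoxia, counts near those of all genes. Both that were higher overlapped control in single libraries. With rSRGN none was called by edgeR against hypoxia, but Actn3 was lower without hypoxia replicate 3 (-1.49). Their sum never passed 12.2 CPM. Myh8 was the most abundant by its mean over all libraries and in control, but not in hypoxia or with rSRGN. The defining factor Myod1 had 0 counts in every library while Myog had at most 1 count. The part of these cell type shifts in the levels of the 9 thin filament genes was not tested.

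Likeness of other genes to the thin filament genes was taken over the 9 libraries. It was the root mean square difference in log2 CPM, each gene being centred on its control mean, over 14248 genes with at least 1 CPM on average. Closest to the median of the 9 genes were Pgam2 (0.0675), Pygm (0.0752), Sspn (0.0967), Cox6a2 (0.0973) and Usp13 (0.105). Pgam2 and Pygm are the muscle forms of phosphoglycerate mutase and glycogen phosphorylase, Sspn belongs to the dystrophin complex and Cox6a2 is the muscle form of a respiratory chain subunit. Tnnt2 was closest to Ndrg4 (0.0664), Tnni3 to Cox6a2 (0.076) and Tnni1 to Ckm, the muscle creatine kinase (0.0856). Actc1 was closest to Mb, the myoglobin gene (0.0704), Tnnc1 to Hrc, a calcium-binding protein of the sarcoplasmic reticulum (0.103), and Tpm1 to S100a1 (0.0783). The other members had less close matches, with Pitpnc1 for Tnnt1 (0.115), Aldh6a1 for Acta1 (0.174) and Gpr22 for Lmod2 (0.266).

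The 9 genes lie on 7 chromosomes of GRCm38, and troponin genes stand in pairs. Tnni1 (chr1:135779434-135810989) and Tnnt2 (chr1:135836354-135852260) share the plus strand with 25364 bases between them. Tnnt1 (chr7:4504570-4516382) and Tnni3 (chr7:4518305-4524229) share the minus strand with 1922 bases between them. The log2 fold changes in hypoxia were -3.57 and -2.40 in the pair of Tnni1 and Tnnt2 and -2.97 and -3.38 in that of Tnnt1 and Tnni3, and differences within a pair were not tested. Tnnc1 is at chr14:31208312-31211729 on the plus strand, Actc1 at chr2:114047282-114053548 on the minus strand, Acta1 at chr8:123891769-123894751 on the minus strand, Tpm1 at chr9:67022590-67049406 on the minus strand and Lmod2 at chr6:24597762-24605414 on the plus strand. Exons of Tnni3 share 86 bases with those of Dnaaf3 on the same strand, and fragments that fit both genes were not counted for either. Dnaaf3 had 48 to 91 counts per library. Within the span of Actc1, on the opposite strand and outside its exons, lies A530058N18Rik, which was picked out after its values were seen. It had 13, 26 and 14 counts in control, 1, 0 and 0 in hypoxia and 2, 1 and 2 with rSRGN, and since strand was not used in counting, it cannot be told apart from unspliced Actc1 RNA.

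Because the 9 genes moved together in hypoxia, their promoters were searched. RefSeq windows (GRCm38.p6) from 250 bases before to 50 after a gene's start were found for 9 of the 9 genes, 11 windows in all since Tnnt2 and Tnni1 have several. The CArG box, the motif of SRF, was in 2 of the 11 windows (Actc1 and Acta1) and in 1.63% of all 32817 windows. CATTCC, the core of the muscle CAT element, was on either strand in 4 of 11 (Tnnt2, Tnnc1, Acta1 and Tpm1) and in 14.7% of all. TATAAA was in 3 of 11 and in 13.6% of all windows, GATA in 10 of 11 and in 57.9%, and CANNTG in 11 of 11 and in 72.3%. The MEF2 motif was in 0 of 11 and in 0.558% of all. A match describes these letters only, and no factor's binding was measured. The stretches below, in the sense of the gene and ending before the RefSeq start, show where the letters lie in the 2 actin promoters and in the 2 troponin promoters that hold CATTCC, with CArG box, CATTCC (or GGAATG, its reverse complement) and TATAAA in capitals. Bases in annotated exons were left out.
Actc1, chr2:114052888-114052995, minus strand: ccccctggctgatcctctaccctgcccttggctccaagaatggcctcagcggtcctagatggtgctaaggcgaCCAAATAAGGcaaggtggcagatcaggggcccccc
Acta1, chr8:123894776-123894895, minus strand: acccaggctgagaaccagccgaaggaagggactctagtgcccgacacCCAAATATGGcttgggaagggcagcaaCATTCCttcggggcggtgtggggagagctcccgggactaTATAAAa
Tnnc1, chr14:31208192-31208311, plus strand: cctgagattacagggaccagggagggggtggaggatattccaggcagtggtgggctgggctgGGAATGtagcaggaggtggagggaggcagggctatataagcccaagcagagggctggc
Tnnt2, chr1:135836214-135836333, plus strand: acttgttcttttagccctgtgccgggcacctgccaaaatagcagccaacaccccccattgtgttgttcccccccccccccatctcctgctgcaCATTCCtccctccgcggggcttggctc
The CArG box lies 47 to 38 bases before the RefSeq start in Actc1 and 73 to 64 bases before it in Acta1. In Actc1 this start lies 673 bases inside the span given above, so the stretch shown is within the annotated gene. The TATAAA of Actc1, at bases 34 to 39 counted from the start, lies outside the stretch.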

How the data were processed

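Poly(A)-enriched RNA of the 9 NMVM libraries was sequenced by the authors, who deposited a table of raw fragment counts, 1 value per gene and library. Per the file headers, these counts were made with featureCounts 2.0.1 on paired ends, exons and GENCODE release 25 of the mouse annotation, without a strand option and without the options that keep fragments with several matches. The submitters' processing notes name HISAT2 and mm10. Genes on opposite strands and actins of similar sequence are uncertain for these reasons. All count columns were used.

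The analysis used edgeR 4.0.16 under R 4.3.3, with filterByExpr, TMM scaling and a quasi-likelihood fit of group means to all 9 libraries. Pairs of libraries within a group differed by 3.63 to 13.1 in chi-square per degree of freedom, more than sampling noise alone gives, so none is a mere repeat count of another. Ratios were compared with an exact permutation test in Python with NumPy, two-sided by construction. The prior count for log2 CPM was 2. Binomial intervals are Clopper-Pearson intervals.

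The 9 genes and all gene lists were chosen with earlier results of these data known, so lists are given by counts and medians without a test. Named genes are the 9, all other thin filament isoforms, genes overlapping exons, the genes with the closest profiles and, per other list and for hypoxia against control and rSRGN against hypoxia, up to 2 called risers and 2 called fallers of largest log2 fold change with a mean of at least 1 CPM. Srf, Myog and A530058N18Rik were chosen after their values were seen. Myh6, Col1a1 and Lyz2 are named as the most abundant of their lists by mean CPM over all libraries, and Myod1 as a defining marker at 0. Every library was left out in turn. Other alternatives were DESeq2 1.42.0, RLE scaling, no scaling beyond library size, a looser filter (1 count over all libraries) and a stricter one (10 counts in each), calls by unadjusted p or regardless of fold, fits restricted to 2 groups and a replicate block. For ratios these were no length division and 1 added count, and for the share other denominators. Leaving out libraries for gene lists, genes named from them, counts of groups that do not overlap and ratios with rSRGN was chosen after seeing the data.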

Additional observations from a re-analysis of the deposited data

How the results depend on the processing

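The calls against control held for 9 of 9 genes in both comparisons under the 15 alternatives each, with the median log2 fold change between -3.52 and -3.25 for hypoxia and between -2.72 and -2.59 for hypoxia + rSRGN. With rSRGN against hypoxia, 2 to 4 of the 9 genes were called and the median was between 0.17 and 0.51. Tnni1 and Tnni3 passed under each alternative, Actc1 was lost without hypoxia replicate 3 or hypoxia + rSRGN replicate 1, and Tnnc1 was gained under RLE scaling (0.60), DESeq2 (0.60), no fold limit (0.57) and the replicate block (0.59). The number of all genes called there, 525, became 899 with the unadjusted p and 2790 without a fold limit, and ranged from 321 to 699 with single libraries left out, the lowest without hypoxia replicate 3. DESeq2 called 428 genes higher and 76 lower, against 381 and 144. Of 405 values for single genes 396 kept their side of the threshold, 2 lost it, 7 gained it and 0 called values changed sign. Acta1, not called with rSRGN, ranged from -0.09 to 0.34.

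With single libraries left out, the log2 difference of hypoxia from control was -0.69 to -0.47 for Tnnt1 to Tnnt2, which missed the threshold without control replicate 1, 2 or 3 or hypoxia + rSRGN replicate 2. For Tnni1 to Tnni3 it was -0.29 to -0.17, and the exact p was 0.00357 without hypoxia replicate 1. The median for hypoxia + rSRGN against control was -2.72 to -2.62, the former without hypoxia + rSRGN replicate 1.

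With single libraries left out, a choice made after seeing the data, genes called with rSRGN against hypoxia numbered 1 to 8 in the titin and Z-disc list, 6 to 12 among cardiomyocyte markers, 1 to 3 among transcription factors, 1 to 2 among splicing factors and 0 to 1 among skeletal muscle markers, with 1, 6, 1, 1 and 1 without hypoxia replicate 3. Smooth muscle markers gave 1 to 2, the latter without hypoxia + rSRGN replicate 1. The fibroblast median there was 0.00621 to 0.0729, lowest without hypoxia replicate 2. Against control with rSRGN, 4 to 7 endothelial markers were called, 4 without hypoxia + rSRGN replicate 3. Medians there were -3.01 to -2.87 for titin and Z-disc genes (-3.01 without control replicate 1), -0.11 to 0.29 for skeletal muscle (0.29 without hypoxia + rSRGN replicate 3) and -0.78 to -0.34 for smooth muscle markers (-0.34 without control replicate 3). The splicing median in hypoxia was -0.96 to -0.80, the ends being without hypoxia replicates 2 and 3. The causes were not tested.

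Deviations of samples with the same replicate number had correlations (r) from -0.0374 to 0.0215. Those of samples with different numbers had r from -0.0477 to 0.0460, a range that includes the former. Whether samples with the same number share a culture or litter was not tested. With the replicate block, 9, 4 and 9 of the 9 genes and 8550, 495 and 8096 of all genes were called in hypoxia against control, with rSRGN against hypoxia and with rSRGN against control, and Tnnc1 was the single call among the 9 genes that it changed.

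Depth limits Acta1 and Lmod2 most, with 40 and 91 counts in their lowest libraries.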
